A study of Sus scrofa with 12 samples.

Results

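The genes of fatty acid synthesis and degradation were examined in the endometrium of sows fed 4 diets. The members were the genes whose deposited annotation placed them on the KEGG maps of fatty acid biosynthesis (ko00061), fatty acid degradation (ko00071) or fatty acid metabolism (ko01212), without those that also belong to the glycolysis map. This gave 41 genes of 20674 in the table, of which 7832 carried any KEGG pathway. The maps held 51 genes in all. Of these, 9 genes, among them alcohol and aldehyde dehydrogenases, were left out because they also lie on the glycolysis map, and ACAT2, a thiolase used in cholesterol synthesis, was left out by name. The biosynthesis map alone held 10 members, the degradation map alone held 25, and 6 members lay on both.

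The groups were L − N (low fiber, 3.73% crude fiber), L + N (the same diet with 0.05% N-carbamylglutamate), H − N (high fiber, 7.46% crude fiber) and H + N (high fiber with 0.05% N-carbamylglutamate), with 3 libraries in each. N-carbamylglutamate (NCG) is an analog of N-acetylglutamate, the activator of the first enzyme of the urea cycle, and is fed to raise arginine. The animals of all groups were Landrace × Yorkshire sows in the second or the third parity, and the diets were fed for 114 days, from breeding to the end of gestation. In the high-fiber diets, soybean bran and beet pulp replaced part of the corn. Soybean oil was also added to the high-fiber diets only, so these diets differed in added fat as well as fiber. L − N, which had the conventional fiber level without NCG, served as the control.

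A cell builds fatty acids in the cytosol from acetyl-CoA. Acetyl-CoA carboxylase makes malonyl-CoA, and fatty acid synthase joins these units into palmitate, which elongases and desaturases then modify. Mitochondria run a separate, bacterial type of synthesis with single enzymes on an acyl carrier protein, which supplies the precursor of lipoic acid. To be burned, a fatty acid is first joined to coenzyme A by an acyl-CoA synthetase, carried into the mitochondrion by the carnitine palmitoyltransferases and shortened there in the repeated cycle of β-oxidation, while peroxisomes shorten the very long chains. Malonyl-CoA blocks the carnitine step, so synthesis and degradation are linked. The endometrium is known to use fatty acids for membranes, for prostaglandins and as fuel.

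Each library held 14369781 to 19309724 counted reads, and the members took 0.231% to 0.311% of them. The fit covered 15351 genes that passed the filter on low counts, 37 of them members. The 4 members that did not pass were ACSBG1 (17 reads over all libraries), CYP4A24 (1 read), and LOC100522145 and LOC100515579, annotated as a taurochenodeoxycholic 6 alpha-hydroxylase and a hydroxyacyl-thioester dehydratase, which had 0 reads. In the principal components of all genes tested, L − N replicate 1 lay at −22.6 on the first axis (26.7% of the variance) and the other L − N libraries at −67.2 and −65.5, while the 9 libraries of the other groups lay above 0. Values without this library are given for the called members it moved most. The summed level of 6 endometrial genes was 690 to 794 CPM under L − N and 1047 to 2068 CPM in the other groups. CPM are reads scaled to a common library size with the TMM factors of edgeR. Among these genes, the estrogen receptor gene ESR1 was called higher in each group against L − N. The 5 trophoblast markers measured summed to 6.56 to 20.3 CPM. Of these, CYP19A1 and CDX2 had 0 reads in every library, and the sum came from GATA3, TFAP2C and TFAP2A. The labels do not tie a library to a sow, so the p-values measure the spread between these libraries only.

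The levels of the members per length are given in FPKM, reads divided by gene length and library total, and the means of the tested members ranged from 0.0862 to 276 FPKM. Enzymes of mitochondrial β-oxidation were the most abundant of the genes known to act on fatty acids. ECHS1, the enoyl-CoA hydratase of the cycle, had a mean of 83.1 FPKM over the 12 libraries, and HADH, the hydroxyacyl-CoA dehydrogenase that follows it, had 75.3 FPKM. HADHA, HADHB and ACAT1 lay between 49.4 and 56.0 FPKM, and ACADM, the medium-chain acyl-CoA dehydrogenase, had 42.8 FPKM. The genes of synthesis were lower, with 12.9 FPKM for the synthase gene FASN, 10.4 for OXSM and 2.60 for ACACB. The lowest members tested were OLAH, the thioesterase that releases medium chains in milk fat synthesis, at 0.221 FPKM, and ACSL6, at 0.0862 FPKM. The highest value of all, 276 FPKM, belonged to SLA-DQA1, a class II histocompatibility gene. It is a member only by its annotation, because its row carries the KEGG identifier of acetyl-CoA carboxylase (K11262), whereas ACACA, which encodes that enzyme, carries no pathway in the table. SLA-DQA1 is therefore described apart, and the counts below are also given without it where they change.

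**Figure D1:**
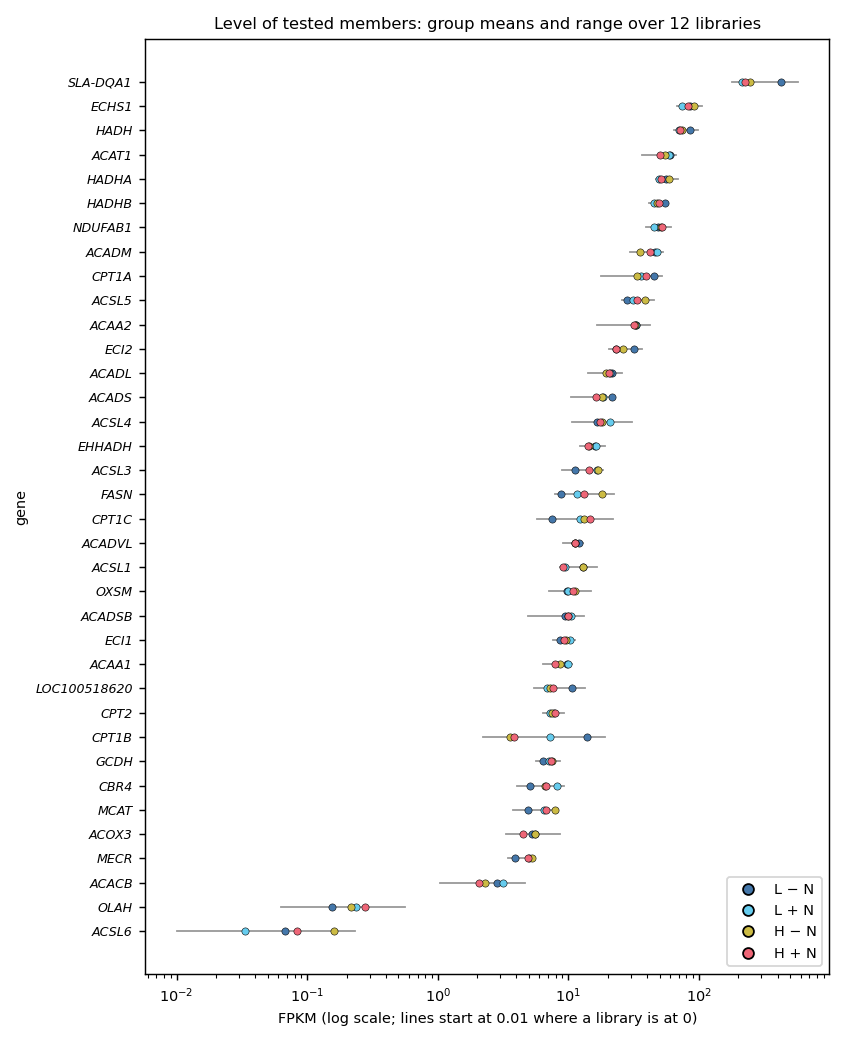
Mean FPKM of 36 of the 37 tested members under L − N, H − N, L + N and H + N (points) with the range over the 12 libraries (lines), on a log axis, ordered by the overall mean. The β-oxidation genes ECHS1 and HADH follow SLA-DQA1 at the top, OLAH and ACSL6 are at the bottom, and the group means lie far apart for CPT1B, from 13.8 under L − N to 3.54 under H − N, and for ACSL6 at the low end.

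Across the diets, few members changed. A gene was called at an adjusted p under 0.05 (edgeR quasi-likelihood test, Benjamini-Hochberg over 15351 genes). H − N against L − N called 3 of 37 members, 2 higher and 1 lower, where 5.27% of all genes were called (1.56% higher, 3.71% lower). L + N against L − N called 4 members, all lower, against 9.6% of all genes (3.63% lower), and 3 of 36 without SLA-DQA1. H + N against L − N called 1 member, lower, against 7.97% of all genes (3.66% lower). These comparisons share the L − N libraries, so they are not independent of each other.

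The main effects and the remaining contrasts called fewer. Fiber (the average over both high-fiber diets minus that over both low-fiber diets) called 0 members by edgeR, against 0.0521% of all genes. At an unadjusted p under 0.05 there were 6 members for fiber, where 19.5% of all genes passed, and DESeq2 called 2, CPT1B lower and FASN higher, where it called 6.95% of the genes it tested. NCG (the average over both diets with it minus that over both without it) called 2 members, both lower, against 7.27% of all genes (1.6% lower). The interaction called 0 members and 0% of all genes by edgeR, with 6 members and 12.8% of all genes at an unadjusted p under 0.05, and DESeq2 called 0 members and 1.85% of the genes. H + N against H − N called 0 members and 0% of all genes, with 1 member and 8.67% of all genes at an unadjusted p under 0.05, and DESeq2 called 0 members and 0.255% of the genes. H + N against L + N called 0 members and 0% of all genes, with 0 members and 4.68% at an unadjusted p under 0.05, and 0 members and 0.0109% by DESeq2. With the fold threshold that the study used in addition (an absolute log2 fold change above 1), 1 member remained in each comparison with L − N, which was CPT1B under H − N (2.91% of all genes) and under H + N (3.58%) and SLA-DQA1 under L + N (3.99%).

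**Figure D2:**
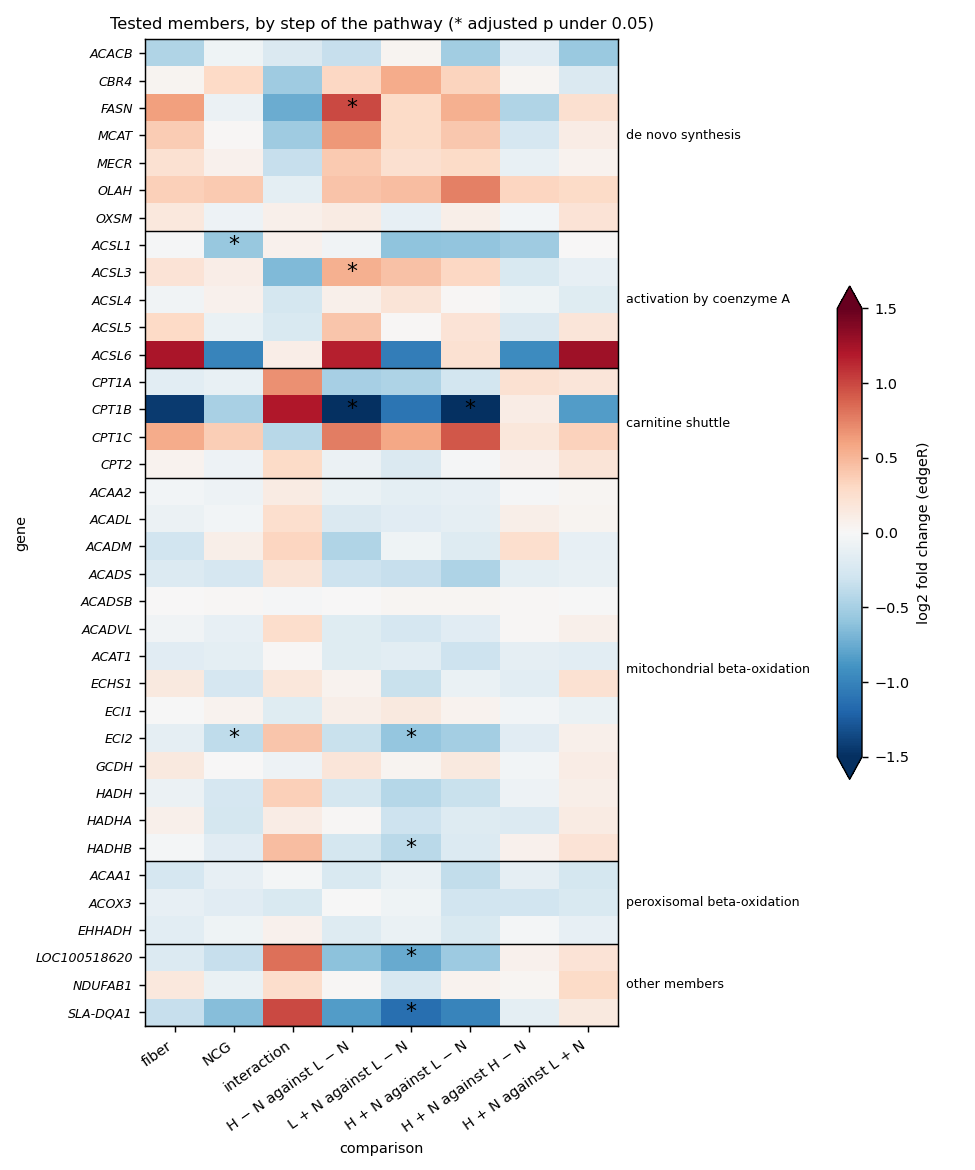
Fitted log2 fold changes (color, from −1.5 blue to 1.5 red) of 36 of the 37 tested members in the 8 comparisons, grouped by step of the pathway, with an asterisk at an adjusted p under 0.05. The asterisks stand at FASN, ACSL3 and CPT1B for H − N, at ECI2, HADHB, LOC100518620 and SLA-DQA1 for L + N, at CPT1B for H + N and at ACSL1 and ECI2 for NCG.

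In de novo synthesis, FASN, the cytosolic synthase that makes palmitate, was higher under H − N than under L − N. It lies at chr12:922405-937560 on the plus strand of Sscrofa11.1. Its level was 76.2, 76.3 and 67.0 CPM under L − N, 83.0, 74.3 and 111 CPM under L + N, 173, 111 and 151 CPM under H − N, and 80.9, 90.3 and 146 CPM under H + N. All H − N and H + N libraries lay above all L − N libraries, while L + N overlapped every other group. FASN rose by 0.99 on the log2 scale under H − N (SE 0.24, adjusted p = 0.0411), a 1.98-fold higher level. In H + N against L − N the difference was 0.53 (SE 0.24, adjusted p = 0.174), and that between H + N and H − N was −0.45 (SE 0.24, adjusted p = 0.609), so the level on high fiber with NCG was separated from neither.

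Most genes of synthesis leaned the same way, and none but FASN passed the edgeR test over all libraries. Of the 7 tested, FASN included, 6 had a positive log2 fold change for fiber and in each of the other diets against L − N. OLAH, also among the 7, had at most 1.05 CPM in any library. The medians, FASN included, were 0.22 for fiber and 0.40, 0.29 and 0.34 for H − N, L + N and H + N, where the medians of all genes were 0.02, 0.03, −0.02 and 0.02. FASN was the 1 of the 7 that edgeR called, under H − N, while DESeq2 also called MECR higher there, and edgeR without L − N replicate 1 called MECR and MCAT higher. MECR, which reduces the double bond in the last step of mitochondrial synthesis, had 27.6 ± 2.51 CPM (SD, n = 3) under L − N and 36.4 ± 0.291 CPM under H − N, a log2 fold change of 0.40 (SE 0.11, adjusted p = 0.0532). MCAT, which loads malonate onto the mitochondrial acyl carrier protein, had 7.06 ± 2.28 CPM under L − N and 11.11 ± 1.12 CPM under H − N (log2 fold change 0.65, SE 0.25, adjusted p = 0.142). ACACB, the acetyl-CoA carboxylase on the mitochondrial surface whose product restrains carnitine palmitoyltransferase 1, was the exception for fiber, with a log2 fold change of −0.45 (SE 0.29, adjusted p = 0.411). ACACA, the cytosolic carboxylase that feeds FASN, is not a member by its annotation and differed little, with 111 ± 10.0 CPM under L − N, 100.0 ± 14.1 under L + N, 102 ± 11.12 under H − N and 104 ± 2.14 under H + N. Its gene overlaps C12H17orf78 on the opposite strand, and whether the counting used the strand is not given in the sources used here.

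Activation by coenzyme A involved 2 of the called members, which differed in their pattern. ACSL3, a long-chain acyl-CoA synthetase of the endoplasmic reticulum and lipid droplets, lies at chr15:124741986-124816955 on the plus strand. It had 66.5, 51.3 and 72.9 CPM under L − N, 83.9, 93.3 and 80.6 under L + N, 96.1, 83.7 and 96.8 under H − N, and 76.1, 78.7 and 82.1 under H + N. Every library of the other diets was above the highest L − N library. ACSL3 rose by 0.54 on the log2 scale under H − N (SE 0.13, adjusted p = 0.0430), and had differences of 0.43 under L + N (SE 0.13, adjusted p = 0.0606) and 0.31 under H + N (SE 0.13, adjusted p = 0.153). It had the smallest unadjusted p of the members for the interaction, at 0.00454, with an adjusted p of 0.258.

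ACSL1, the long-chain acyl-CoA synthetase best known from adipose tissue, liver and heart, was lower with NCG. It lies at chr15:45866858-45936327 on the minus strand. Its level was 49.9, 73.4 and 79.0 CPM under L − N, 45.6, 43.5 and 43.8 under L + N, 51.5, 56.6 and 86.4 under H − N, and 45.0, 40.7 and 48.1 under H + N. All 6 libraries with NCG lay below all 6 without it, and they varied less. ACSL1 fell by 0.57 on the log2 scale (SE 0.15, adjusted p = 0.0382), and the pair differences were −0.61 on low fiber (SE 0.21, adjusted p = 0.0861) and −0.54 on high fiber (SE 0.21, adjusted p = 0.536). The other synthetases tested, ACSL4, ACSL5 and ACSL6, passed in no comparison. ACSL5 was the most abundant of the family per length, with 35.9% to 51.1% of the summed ACSL FPKM in each library.

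In the carnitine shuttle, CPT1B, the muscle type of carnitine palmitoyltransferase 1, showed the largest fold change of all called members. It lies at chr5:155552-163536 on the plus strand. Its level was 14.1, 57.4 and 53.1 CPM under L − N, 23.1, 17.5 and 18.0 under L + N, 10.0, 11.4 and 8.97 under H − N, and 11.3, 14.7 and 6.62 under H + N. L − N replicate 1 was far below the other L − N libraries and within the range of H + N, and no high-fiber library reached the lowest L + N library. CPT1B fell by 2.04 on the log2 scale under H − N (SE 0.45, adjusted p = 0.0314), a 4.11-fold lower level, and by 1.93 under H + N (SE 0.44, adjusted p = 0.0296), a 3.81-fold lower level. In L + N the difference was −1.09 (SE 0.43, adjusted p = 0.128), and for fiber it was −1.44 (SE 0.31, adjusted p = 0.0678). Without L − N replicate 1 the log2 fold changes were −2.45 under H − N (SE 0.28, adjusted p = 0.000606) and −2.34 under H + N (SE 0.27, adjusted p = 0.00161). Without L − N replicate 2 or replicate 3 neither was called.

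The liver type CPT1A, the main carnitine palmitoyltransferase 1 gene here, was not called in any comparison, and varied widely between libraries of a group. It had 203 ± 31.5 CPM under L − N, 148 ± 20.5 under L + N, 143 ± 71.9 under H − N and 167 ± 40.9 under H + N. CPT2, which returns the acyl group to coenzyme A inside the mitochondrion, was even, with 24.2 ± 3.01, 20.7 ± 2.56, 22.8 ± 2.24 and 23.8 ± 4.50 CPM in the same order. CPT1C, a form known from the brain with little catalytic activity, had a log2 fold change of 0.76 under H − N (SE 0.35, adjusted p = 0.204) and 0.93 under H + N (SE 0.35, adjusted p = 0.112). The balance within the family therefore differed between libraries. CPT1B made up 9.95%, 25.8% and 22.9% of the summed CPT1 FPKM under L − N and 11.9% to 14.2% under L + N, and 4.31% to 9.23% in the 6 high-fiber libraries, which all lay below the 6 low-fiber libraries. CPT1C made up 10.4% to 11.7% under L − N and 15.1% to 42.3% elsewhere.

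**Figure D3:**
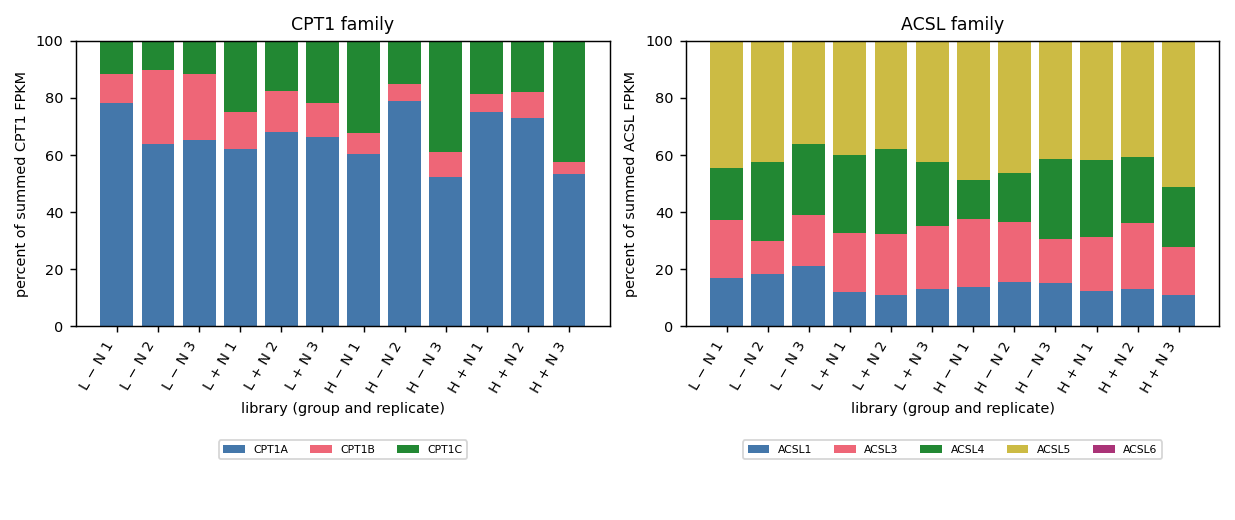
Share of each gene in the summed FPKM of the CPT1 family (left) and the ACSL family (right), in percent, with a stacked bar for each of the 12 libraries. The CPT1B share is 9.95% to 25.8% under L − N and at most 9.23% under H − N and H + N, and ACSL5 is the largest part of the ACSL family in every library.

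The list of mitochondrial β-oxidation had 14 members tested, and most lay lower in the other diets than under L − N. This list includes GCDH and ACADSB, annotated as the dehydrogenases of glutaryl-CoA and of short or branched acyl-CoA. There were 9 of 14 with a negative log2 fold change under H − N, 11 under L + N and 11 under H + N, and 2 were called, both under L + N. The medians were −0.18, −0.21 and −0.18, where those of all genes were 0.03, −0.02 and 0.02. Another 6 genes of mitochondrial β-oxidation, which are not members, did not share this lean. Of these, 3, 3 and 2 were lower in the same order, with medians of 0.002, 0.03 and 0.02. ECI2, an enoyl-CoA isomerase of mitochondria and peroxisomes that moves the double bonds of unsaturated fatty acids into place, lies at chr7:2426126-2446172 on the minus strand. It had 48.6, 72.2 and 62.7 CPM under L − N, 40.0, 41.4 and 41.2 under L + N, 48.0, 46.9 and 50.5 under H − N, and 37.6, 45.8 and 45.7 under H + N. The libraries with NCG were all below those without it, and the L + N libraries were nearly equal. ECI2 fell by 0.58 on the log2 scale under L + N (SE 0.14, adjusted p = 0.0284) and by 0.38 for NCG (SE 0.10, adjusted p = 0.0453), with −0.51 under H + N against L − N (SE 0.14, adjusted p = 0.0513). On high fiber the means were closer, 43.1 CPM under H + N and 48.5 CPM under H − N, and that comparison did not call ECI2. Leaving out L − N replicate 1 gave −0.72 under L + N (SE 0.12, adjusted p = 0.00785), and leaving out L − N replicate 2 gave −0.45 (SE 0.14, adjusted p = 0.0928).

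HADHB, the β subunit of the trifunctional protein, which carries the thiolase for long chains, was the other β-oxidation gene called. It lies at chr3:112712894-112753121 on the minus strand, head to head with HADHA, the gene of the α subunit, at chr3:112753343-112797627 on the plus strand. HADHB had 120, 144 and 145 CPM under L − N, 109, 97.6 and 103 under L + N, 115, 122 and 104 under H − N, and 111, 118 and 127 under H + N. Only L + N lay wholly below L − N. HADHB fell by 0.41 on the log2 scale under L + N (SE 0.11, adjusted p = 0.0424). HADHA had 159 ± 10.3 CPM under L − N, 128 ± 4.97 under L + N, 161 ± 21.5 under H − N and 140 ± 7.92 under H + N, a log2 fold change of −0.32 under L + N (SE 0.11, adjusted p = 0.0987).

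The remaining 12 members of the mitochondrial list passed in no comparison by edgeR, while DESeq2 called HADHA lower for NCG and, with HADH, under L + N. HADH had a log2 fold change of −0.43 under L + N (SE 0.13, adjusted p = 0.0607). ACADM, the enzyme that starts the cycle on medium chains, had 88.2 ± 24.8 CPM under L − N, 84.0 ± 9.42 under L + N, 64.7 ± 11.08 under H − N and 76.9 ± 5.10 under H + N, and its log2 fold change under H − N was −0.45 (SE 0.20, adjusted p = 0.200). Over all 23 tested members of the degradation map alone, 17 were lower under H − N, 19 under L + N and 19 under H + N than under L − N. The medians were −0.18, −0.17 and −0.20, where those of all genes were 0.03, −0.02 and 0.02. For NCG, 18 of the 23 were lower, with a median of −0.12 where that of all genes was −0.03.

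The 4 genes of peroxisomal β-oxidation had negative log2 fold changes for fiber, for NCG and in each group against L − N, between −0.37 and 0, and none was called by edgeR, while DESeq2 called ACAA1 lower under H + N. ACAA1, the peroxisomal thiolase, had the lowest unadjusted p of the 4, with a log2 fold change of −0.37 under H + N against L − N (SE 0.13, adjusted p = 0.0894). ACAA1 overlaps MYD88 and DLEC1 on the opposite strand. In all, 7 members overlap a gene on the opposite strand, among them also ACADSB, ACADVL, ACSBG1, ECI1 and GCDH, and none of the 7 was called by edgeR with all libraries.

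Of the 3 members tested outside these steps, all had a negative log2 fold change under L + N and 2 were called lower. LOC100518620, annotated as cytochrome P450 2U1, an enzyme known to hydroxylate long-chain fatty acids near their end, lies at chr8:114016915-114035905 on the minus strand. It had 38.7, 48.1 and 65.8 CPM under L − N, 29.6, 29.0 and 31.7 under L + N, 35.9, 37.2 and 26.3 under H − N, and 35.7, 35.1 and 33.5 under H + N. Every library of the other diets lay below the lowest L − N library. It fell by 0.76 on the log2 scale under L + N (SE 0.19, adjusted p = 0.0298), and had differences of −0.62 under H − N (SE 0.19, adjusted p = 0.0767) and −0.55 under H + N (SE 0.19, adjusted p = 0.0845). The difference under L + N without L − N replicate 1 was −0.92 (SE 0.17, adjusted p = 0.0109), and without L − N replicate 3 it was −0.53 (SE 0.17, adjusted p = 0.119). NDUFAB1, the mitochondrial acyl carrier protein that is also a subunit of respiratory complex I, passed in no comparison.

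SLA-DQA1, which presents antigen on macrophages, dendritic cells and B cells and has no known part in fatty acid synthesis, lies at chr7:24953472-24959313 on the plus strand. It had 305, 643 and 807 CPM under L − N, 240, 247 and 314 under L + N, 258, 274 and 448 under H − N, and 323, 319 and 244 under H + N. L − N replicate 1 lay within the range of the other diets, and the other L − N libraries lay above them. SLA-DQA1 fell by 1.13 on the log2 scale under L + N (SE 0.32, adjusted p = 0.0485), a 2.19-fold lower level. Without L − N replicate 1 the log2 fold change was −1.44 (SE 0.24, adjusted p = 0.00785), and without L − N replicate 3 it was −0.83 (SE 0.32, adjusted p = 0.185). Reads of near-identical class II genes and alleles can be split between copies in counting, so the values of SLA-DQA1 are uncertain.

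**Figure D4:**
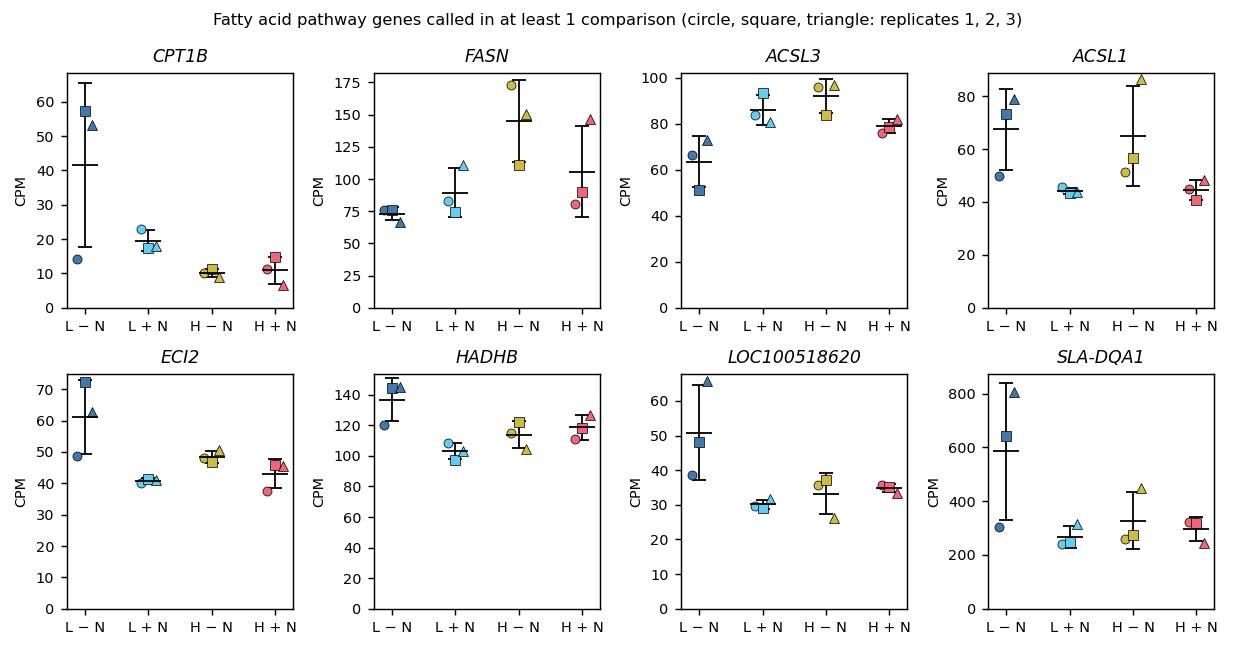
Level in CPM of the 8 members called in at least 1 comparison, for each library of L − N, H − N, L + N and H + N (circle, square and triangle for replicates 1, 2 and 3), with the group mean and SD (bars). CPT1B under L − N spans 14.1 to 57.4 CPM because replicate 1 is low, FASN is highest under H − N (111 to 173 CPM), and ACSL1 and ECI2 are lower in the libraries with NCG.

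The steps around these maps were read from lists of 96 further genes of fatty acid metabolism, of which 94 were in the table and 90 were tested. For fiber edgeR called 0, against 0.0521% of all genes. At an unadjusted p under 0.05 there were 19 for fiber, where 19.5% of all genes passed. DESeq2 called 7 for fiber, where it called 6.95% of the genes it tested. For NCG edgeR called 2, both lower, where 7.27% of all genes were called and 1.6% were called lower. Against L − N, 1 was higher and 2 lower under H − N, 5 were lower under L + N and 4 were lower under H + N, of 90 each. In the same order, 5.27%, 9.6% and 7.97% of all genes were called, and 3.71%, 3.63% and 3.66% were called lower. Under H − N, 1.56% of all genes were called higher. In elongation, where 12 genes were tested, ELOVL6, which lengthens palmitate to stearate, rose under H − N by 0.98 on the log2 scale (SE 0.17, adjusted p = 0.0194). It had 31.2, 28.1 and 24.9 CPM under L − N, 38.1, 36.1 and 34.3 under L + N, 48.3, 48.8 and 68.6 under H − N, and 33.4, 39.1 and 47.9 under H + N. The L − N libraries were the lowest and those of H − N the highest, with no overlap between H − N and any other group.

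None of the 5 desaturases passed by edgeR, while DESeq2 called FADS2 lower under L + N and FADS1 lower for NCG. SCD, which makes oleate, had 196 ± 79.5 CPM under L − N, 127 ± 26.7 under L + N, 189 ± 104 under H − N and 132 ± 26.1 under H + N. FADS2, which makes the first double bond on the way to arachidonic acid, had 73.0 ± 21.8, 43.4 ± 5.17, 51.0 ± 13.9 and 45.9 ± 12.6 CPM in the same order, with a log2 fold change of −0.75 under L + N (adjusted p = 0.0935). The spread between the libraries of a group was wide for both.

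Among the 14 regulators, PPARG, the receptor that drives fat storage, fell by 1.09 on the log2 scale under H − N (adjusted p = 0.0462), and NR1H3, the liver X receptor α, fell by 0.79 under L + N (adjusted p = 0.0274) and by 0.75 under H + N (adjusted p = 0.0389). SREBF1, the factor known to switch on FASN and ELOVL6, had a log2 fold change of 0.29 under H − N (adjusted p = 0.456). In uptake and binding (13 genes), FABP5, a fatty acid binding protein, fell by 1.03 under H − N (adjusted p = 0.0448), and DBI, the acyl-CoA binding protein, fell by 0.67 under L + N (adjusted p = 0.0334), by 0.65 under H + N (adjusted p = 0.0436) and by 0.46 for NCG (adjusted p = 0.0432). In storage and lipolysis (11 genes), the triglyceride lipase PNPLA2 fell by 0.81 (adjusted p = 0.0291) and the monoglyceride lipase MGLL by 0.87 (adjusted p = 0.0367), both under L + N.

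Among the 8 genes of substrate supply, IDH1, a cytosolic source of NADPH, fell by 0.72 on the log2 scale under H + N (adjusted p = 0.0171) and by 0.34 for NCG (adjusted p = 0.0456). CRAT, the carnitine acetyltransferase, fell by 0.58 under H + N (adjusted p = 0.0443), and was the 1 gene of 10 that edgeR called in the list of carnitine, electron transfer and ketone bodies. DESeq2 also called CRAT lower for fiber and under H − N, and ETFDH, which passes electrons from β-oxidation to the respiratory chain, lower under H − N. PPT1, the lysosomal thioesterase that removes palmitate from proteins, fell by 0.81 under L + N (adjusted p = 0.0358). The β-oxidation genes outside the members, 6 mitochondrial and 5 peroxisomal, and the further genes of synthesis and activation, 2 each, had none called by edgeR, while DESeq2 called the peroxisomal oxidase gene ACOX2 lower for fiber and under H + N. The standard errors of the called log2 differences in these lists were 0.092 to 0.28. Many of these calls were lost under other settings. Of 17 alternatives, PPARG under H − N lost its call in 14, and FABP5 under H − N, CRAT under H + N and DBI under H + N in 11 each. Of the 16 alternatives for NCG, IDH1 lost its call in 12 and DBI in 10. The other calls in these lists were lost in 2 to 9 alternatives, with IDH1 under H + N lost in 2 and ELOVL6 and PNPLA2 in 4 each. MGLL overlaps ABTB1 and NR1H3 overlaps MADD and ACP2, so their values may include reads of these neighbors.

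Some lists of cell type markers were lower in the groups in which members were lower, and others were not. In RNA of whole tissue, fewer cells of a type and less RNA per cell cannot be told apart. The summed level of 5 macrophage markers was 557, 1468 and 1487 CPM under L − N, 402 to 617 under L + N, 281 to 430 under H − N and 401 to 551 under H + N, and L − N replicate 1 was again close to the other diets. Of these 5, CD68, CSF1R and CD163 were called lower under H − N, CD163 under L + N, and CSF1R and CD163 under H + N. Each member called lower, CPT1B, SLA-DQA1, ACSL1, ECI2, HADHB and LOC100518620, also had its lowest L − N value in replicate 1. The part of macrophages in the values of these genes was not tested. The 5 markers of smooth muscle summed to 5052 CPM under L − N replicate 1 and to 789 to 1975 CPM elsewhere. TAGLN and ACTA2 of this list were called lower under L + N. CPT1B, the muscle type, had its lowest L − N value in replicate 1, and the part of smooth muscle in the CPT1B values was not tested. The 5 endothelial markers summed to 1066 to 1559 CPM under L − N and 753 to 915 under L + N, with PECAM1 called lower under L + N, under H + N and for NCG, and CDH5 under L + N. The part of these cells in the members lower under L + N was not tested. The 4 erythroid markers measured summed to 752, 62.5 and 513 CPM under L − N and 26.7 to 81.9 under L + N. They summed to 31.5 to 55.2 CPM under H − N and 28.0 to 293 under H + N. The 5 markers of T and NK cells summed to 38.9 to 139 CPM over all libraries. No gene of these last lists was called by edgeR, and the part of blood in the members was not tested.

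The 5 markers of dividing cells summed to 45.7 to 143 CPM under L − N, 270 to 384 under L + N, 153 to 202 under H − N and 254 to 350 under H + N, and all 5 were called higher under L + N, under H + N and for NCG. Their part in the lower ACSL1 and ECI2 with NCG was not tested. The 7 epithelial markers summed to 995 to 1456 CPM under L − N and 1511 to 2257 CPM under H − N, the group with the highest FASN and ELOVL6, and 1 of them, CDH1, was called higher there. Their part in these 2 genes was not tested. The 7 stromal markers summed to 26198 to 61559 CPM and were highest under H − N replicate 3 and H + N replicate 3, with VIM called lower in all 3 groups against L − N. The 5 adipocyte markers summed to 0.763 to 9.68 CPM, with LEP at 3 reads over all libraries, so the defining markers of fat cells were near 0.

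**Figure D5:**
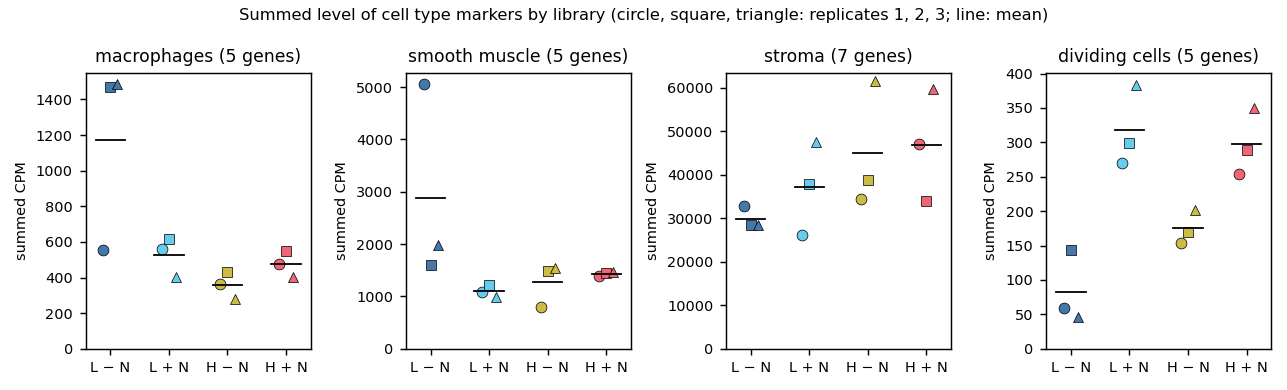
Summed level in CPM of the markers of macrophages, smooth muscle, stroma and dividing cells in each library of L − N, H − N, L + N and H + N (circle, square and triangle for replicates 1, 2 and 3; line, mean). L − N replicates 2 and 3 are above 1400 CPM for macrophages and replicate 1 is at 557, and the dividing cell markers are lower under L − N than in every other group.

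The calls depended on single libraries. Without L − N replicate 1, 9 members were called under H − N, 7 under L + N, 6 under H + N, 5 for NCG, 2 for fiber (ACADM and CPT1B, lower) and 1 for the interaction (CPT1B). The same fits called 13%, 12.6%, 11.7%, 7.9%, 6.99% and 2.81% of all genes in that order. The 6 added under H − N were MECR and MCAT, higher, and ACADM, ECI2, LOC100518620 and SLA-DQA1, lower. With L − N replicate 2 left out, edgeR called no member in any comparison, and of all genes it called 0.00645% for fiber, 6.08% for NCG, 1% under H − N, 5.56% under L + N and 3.17% under H + N. With L − N replicate 3 left out it also called no member, and of all genes 0.0193%, 3.76%, 0.0385%, 1.33% and 0.0257% in that order. Leaving out any library of H − N removed all calls of that group against L − N, and the same held for L + N, while under H + N replicates 1 and 3 were needed. FASN also needed L + N replicates 1 and 2, and ACSL3 kept its call only without L − N replicate 1 or H + N replicate 3. The log2 fold changes kept their sign over these fits, but their size moved. Under H − N they ran from 0.84 to 1.15 for FASN, 0.40 to 0.65 for ACSL3 and −2.45 to −1.73 for CPT1B. Under L + N they ran from −1.44 to −0.83 for SLA-DQA1, −0.92 to −0.53 for LOC100518620, −0.72 to −0.45 for ECI2 and −0.49 to −0.36 for HADHB.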

How the data were processed

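Poly(A) RNA of endometrium was sequenced in 12 libraries, grouped by their titles. The authors deposited a table with the read count of each gene, not normalized, and an FPKM value, together with gene length, coordinates on Sscrofa11.1 and KEGG annotation. The FPKM values, made by the authors from counts, gene length and library total, were recomputed here from the deposited counts, and the largest deviation was 1.91e-05 percent. The submitters' processing notes name fastp 0.22.0, HISAT2 2.1.0 and HTSeq 0.9.1. Whether counting used the strand is not given in the sources used here.

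Counts were tested in R 4.3.3 with edgeR 4.0.16 (filterByExpr, TMM, glmQLFit with a mean for each of the 4 groups, 8 residual degrees of freedom, 15351 genes, biological coefficient of variation 0.269), and adjusted over all genes by the Benjamini-Hochberg method. CPM uses the TMM factors, and FPKM served only for levels between genes. A log2 fold change is the fitted difference of group means, with its standard error. The method was tested on simulated data in which 200 genes were changed. Alternatives were RLE size factors, no filter, DESeq2 1.42.0, the fold threshold of the study, fits of only the groups compared, a replicate block, leaving out each library in turn and, chosen after the values were seen, leaving out SLA-DQA1.

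The members, role lists, marker lists and tests were chosen with earlier results of these data known. Members may be named, and 1 tested member, which is part of the counts, is not reported singly here. Values per library are given for members called in at least 1 of 8 comparisons, and group levels for FASN, ACACA, SCD, ELOVL6, FADS2, CPT1A, CPT2, ACADM and HADHA. Of the other lists, called genes are given. SREBF1 and members that did not pass were named after their values were seen. All 41 members have the start and end of RefSeq Sscrofa11.1. Precision is set by the spread between libraries, and no intervals for counting error are given.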

Additional observations from a re-analysis of the deposited data

How the results depend on the processing

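No called log2 fold change changed sign under any alternative, while the median of the members for the interaction, 0.08 over all libraries, was −5.76e-05 without H + N replicate 2. The number of members called was the unstable quantity. DESeq2 called 2 members for fiber, 4 for NCG, 5 in H − N, 8 in L + N and 6 in H + N against L − N, where edgeR called 0, 2, 3, 4 and 1, and it called 6.95%, 13%, 13.1%, 17.3% and 17% of the genes it tested. Its added members were HADHA and SLA-DQA1 for NCG, MECR and LOC100518620 in H − N, ACSL1, ACSL3, HADH and HADHA in L + N, and ACAA1, ACSL1, ECI2, LOC100518620 and SLA-DQA1 in H + N. Of the 90 other genes of fatty acid metabolism it called 10 for NCG, 14 in H − N, 14 in L + N and 15 in H + N, where edgeR called 2, 3, 5 and 4. With the fold threshold the counts were 0 for NCG, 1 in H − N and 1 in L + N. RLE size factors gave 2 in H + N, and no filter on low counts gave 1 for NCG. A fit of only the groups compared gave 0 in H − N, 0 in L + N and 0 in H + N, with fewer residual degrees of freedom. With a replicate block the counts were 0 in H − N, 1 in L + N (ECI2), 1 in H + N and 2 for NCG. Replicate numbers did not pair the libraries, since the correlations of same-numbered libraries ran from −0.32 to 0.28 and 3 of 12 libraries correlated best with their own number. Leaving out each library in turn gave 0 to 2 members for fiber, 0 to 5 for NCG, 0 to 1 for the interaction, 0 to 9 in H − N, 0 to 7 in L + N, 0 to 6 in H + N, and 0 to 0 for H + N against H − N and against L + N. The cause of these differences was not tested, except that each such fit has fewer libraries. The median log2 fold change of the members ran from −0.11 to −0.03 in H − N, −0.19 to −0.10 in L + N and −0.20 to −0.09 in H + N. These shifts were below 0.134, the SD within groups of the members' median log2 CPM per library. That width is of the order of the medians themselves, so it is a loose limit. Depth limits what can be read from OLAH and ACSL6, whose highest libraries had 1.05 and 1.503 CPM.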

Other observations

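The genes of mitochondrial β-oxidation varied between libraries of a group. H − N replicate 3 was the lowest library of its group for 10 of the 14 genes, with a summed level of 429 FPKM where the other H − N libraries had 542 and 521 FPKM. H + N replicate 3 had 442 FPKM where the others had 466 and 522 FPKM, and was lowest for 7 of the 14 genes. L − N replicate 1 and L + N replicate 2 were also lowest in their groups for 7 of the 14 genes each, with sums of 519 and 465 FPKM where the other libraries of these groups had 533 and 544 FPKM and 492 and 480 FPKM. The 2 high-fiber libraries named also had the highest summed stromal markers, 61559 and 59700 CPM, and the part of stroma in their values was not tested.

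The acyl-CoA synthetases went the other way in H − N replicate 3, which had the highest sum of all libraries for the activation genes, 109 FPKM, where the other 11 libraries had 59.3 to 85.3 FPKM. The carnitine shuttle had its lowest sum, 40.5 FPKM, in the same library. CPT1A had 80.9 CPM there, against 127 and 222 CPM in the other H − N libraries.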
